A study of Mus musculus with 4 samples.

Results

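The replication-dependent histone genes were taken as the RefSeq protein-coding genes of mouse build mm10 (GRCm38.p6) whose symbols begin with H2ac, H2bc, H3c, H4c or H1f and end in a number. The rule found 67 genes among 21887 protein-coding genes. There were 17 H2A, 16 H2B, 12 H3, 12 H4 and 10 linker histone H1 genes. Chromosome 13 held 53 of them in a pair of runs of 22 and 31 genes, chromosome 3 held a run of 10, and H1f10, H1f8, H1f0 and H1f7 lay alone on chromosomes 6 and 15. No member carried a matching symbol on chromosome 11.

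The study used chromatin immunoprecipitation and sequencing (ChIP-seq) to map Slug, the product of Snai2, in epithelial pBl.1G cells that express high Slug, and Snail, the product of Snai1, in mesenchymal pBl.3G cells that express high Snail. Both are mouse breast cancer lines from the MMTV-PyMT model, in which a mammary tumour virus promoter drives the polyoma middle T oncogene, and both were untreated. The pBl.1G chromatin was precipitated with a rabbit monoclonal antibody to Slug, and that of pBl.3G with an antibody whose label names Snail + Slug as its targets. There was 1 ChIP library for each factor and no replicate, so factor, antibody and cell line cannot be told apart, and no test was made; sites bound in few cells and sites bound weakly in many cannot be told apart either.

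Replication-dependent histone genes supply the core histones H2A, H2B, H3 and H4 and the linker histone H1 that package newly made DNA. They are short, mostly lack introns, are transcribed in S phase, and their mRNAs end in a stem-loop and not in a poly(A) tail. Many H2A and H2B genes stand back to back and share the promoter between them. Snail and Slug are zinc finger repressors that recognise E-boxes of the form CAGGTG.

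Nearly all histone genes had a Snail peak and most had a Slug peak at their ends. A peak midpoint within 1 kb of either gene end was found for Slug at 51 of 67 genes (76.1%, 95% Wilson interval 64.7 to 84.7) and for Snail at 62 of 67 (92.5%, 83.7 to 96.8). Peaks of both factors lay at 50 genes (74.6%, 63.1 to 83.5). The same windows held a Slug peak at 12.1% of all protein-coding genes, a Snail peak at 48.7% and both at 8.88%. The set was selected on the midpoints in these same 2 peak lists, so these counts are a description of what chose it and nothing is read from them. Neighbouring genes share peaks, which makes the intervals too narrow: 44 distinct Slug peaks and 41 distinct Snail peaks accounted for the counts. With peaks scoring at least 100, Slug was at 32 of 67 genes beside 4.72% of all protein-coding genes, and Snail at 62 beside 45.7%. Within 10 kb, Slug reached 63 members beside 47.6% of all protein-coding genes and Snail 65 beside 64.1%.

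Histone genes are short, so they were also set beside other short genes. Of the 58 members of at most 1 kb, 45 had Slug and 55 had Snail within the window. Among the 1519 other protein-coding genes of that size the numbers were 32 (2.11%) for Slug and 51 (3.36%) for Snail. Both shares lie below the 12.1% and 48.7% of all protein-coding genes, so short genes are a low comparator that widens the contrast. Among genes with a Snail peak within 1 kb, 18.2% also had a Slug peak, and among genes whose Snail peak scored 1000 or more 21.1% did. For histone genes with such a Snail score the number with a Slug peak was 43 of 49 (87.8%). The member counts rest on the same midpoints that chose the set, so they too are a description and nothing is read from them.

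A stricter count asked for a Slug peak on the gene itself. It was met by 36 of the 67 members, 31 of them at most 1 kb long. In the whole list 37 protein-coding genes of at most 1 kb (2.35%) carried a Slug peak on the gene, so 6 of these were no members, or 0.395% of the other short genes. A peak on so short a gene mostly has its midpoint within 1 kb of an end, so this count is not independent of how the set was chosen. Of the 6, H2aw and H2bu2 are histone genes of chromosome 11 under other symbols, and the rest were Mif, Gm52259, Olfr298 and Olfr323; they are named after their values were seen. Snail peaks touched 63 members and covered 56 of them from end to end.

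**Figure D1:**
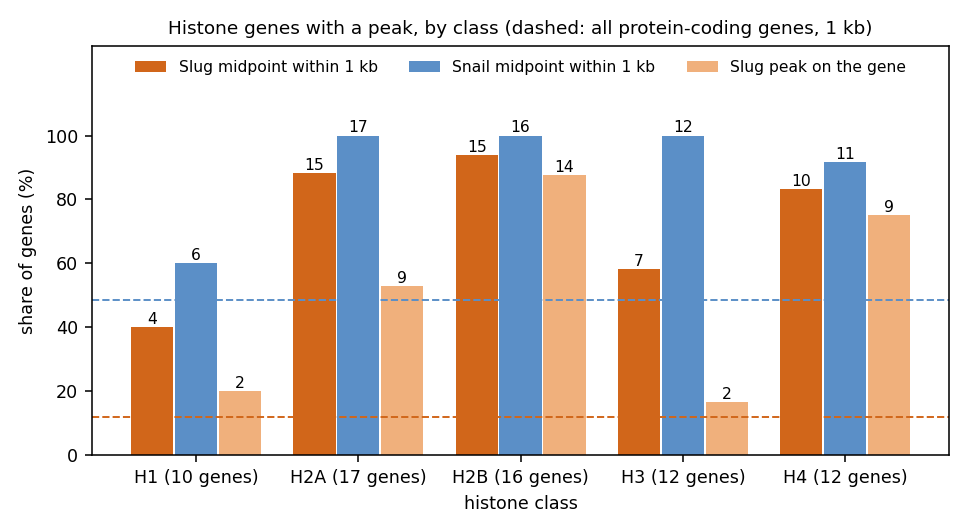
Share of histone genes (vertical axis, %) with a Slug or Snail peak midpoint within 1 kb of an end, or a Slug peak on the gene, for each histone class (horizontal axis); numbers above the bars are genes and the dashed lines mark all protein-coding genes at 12.1% (Slug, orange) and 48.7% (Snail, blue). Slug peaks lie on 14 of 16 H2B and 9 of 12 H4 genes but on 2 of 12 H3 genes, while Snail reaches all H2A, H2B and H3 genes.

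The promoter windows of 7 members show the DNA around their annotated starts, which is not the same as the DNA under their peaks. They were chosen as an H4 gene with and an H4 gene without a Slug peak (H4c11, H4c2), a back-to-back H2A-H2B promoter (H2bc15, whose window reaches past the start of H2ac15), the gene under the highest-scoring Slug peak (H2bc9), an H3 gene with a Snail peak alone (H3c6), the H3 gene under the highest-scoring Snail peak of the set (H3c15), and the testis gene H2ac1. Each window runs from 250 bases before to 50 after the annotated start, 5′ to 3′ in gene direction, from RefSeq GRCm38.p6. Capitals mark the E-box CAGGTG, the TATA box TATAAA, the CCAAT letters and the octamer ATTTGCAT, each on either strand. H4c11 lies at chr13:21734784-21735083 (+ strand), H4c2 at chr13:23756687-23756986 (+ strand), H2bc15 at chr13:21753826-21754125 (+ strand), H2bc9 at chr13:23543395-23543694 (- strand), H3c6 at chr13:23562336-23562635 (- strand), H3c15 at chr3:96239078-96239377 (- strand) and H2ac1 at chr13:23934187-23934486 (+ strand).
H4c11: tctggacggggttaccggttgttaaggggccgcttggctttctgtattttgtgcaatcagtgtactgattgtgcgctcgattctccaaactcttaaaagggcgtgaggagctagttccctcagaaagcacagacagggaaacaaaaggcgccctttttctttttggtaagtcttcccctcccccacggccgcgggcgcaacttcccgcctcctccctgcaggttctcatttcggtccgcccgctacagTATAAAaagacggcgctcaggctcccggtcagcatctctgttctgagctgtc
H4c2: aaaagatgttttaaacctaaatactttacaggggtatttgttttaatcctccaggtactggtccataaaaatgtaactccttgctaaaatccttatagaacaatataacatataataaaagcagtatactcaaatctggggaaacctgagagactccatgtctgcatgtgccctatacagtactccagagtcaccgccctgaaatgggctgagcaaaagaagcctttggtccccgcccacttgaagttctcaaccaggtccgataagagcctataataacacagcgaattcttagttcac
H2bc15: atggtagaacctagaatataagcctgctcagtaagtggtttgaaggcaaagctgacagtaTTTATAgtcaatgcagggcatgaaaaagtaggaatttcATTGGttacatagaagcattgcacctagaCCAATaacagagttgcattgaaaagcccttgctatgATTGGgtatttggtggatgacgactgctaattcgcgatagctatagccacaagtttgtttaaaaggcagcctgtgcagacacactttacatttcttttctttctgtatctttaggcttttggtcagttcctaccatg
H2bc9: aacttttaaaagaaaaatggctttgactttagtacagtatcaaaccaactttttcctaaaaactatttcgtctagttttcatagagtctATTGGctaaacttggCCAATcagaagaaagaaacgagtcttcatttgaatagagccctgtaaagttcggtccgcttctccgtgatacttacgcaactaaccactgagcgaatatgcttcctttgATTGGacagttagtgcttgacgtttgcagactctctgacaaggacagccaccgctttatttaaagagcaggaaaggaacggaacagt
H3c6: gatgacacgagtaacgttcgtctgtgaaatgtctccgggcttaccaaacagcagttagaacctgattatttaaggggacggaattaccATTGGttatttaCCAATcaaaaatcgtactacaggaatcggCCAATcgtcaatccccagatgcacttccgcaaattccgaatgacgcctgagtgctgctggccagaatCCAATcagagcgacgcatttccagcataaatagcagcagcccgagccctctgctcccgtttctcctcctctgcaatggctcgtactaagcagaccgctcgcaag
H3c15: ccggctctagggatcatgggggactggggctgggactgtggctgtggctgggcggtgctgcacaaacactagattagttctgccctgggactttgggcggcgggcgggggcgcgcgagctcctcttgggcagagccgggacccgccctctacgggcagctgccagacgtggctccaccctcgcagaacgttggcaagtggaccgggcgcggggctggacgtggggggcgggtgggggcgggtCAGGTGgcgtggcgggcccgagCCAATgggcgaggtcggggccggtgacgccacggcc
H2ac1: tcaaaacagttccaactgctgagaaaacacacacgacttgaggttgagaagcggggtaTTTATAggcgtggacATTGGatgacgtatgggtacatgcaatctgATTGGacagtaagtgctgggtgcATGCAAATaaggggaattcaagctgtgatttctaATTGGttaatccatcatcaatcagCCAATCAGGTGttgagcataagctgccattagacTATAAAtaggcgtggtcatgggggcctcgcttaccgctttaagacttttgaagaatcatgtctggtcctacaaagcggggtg

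The windows were searched for E-box letters. The promoter table held 63 windows for 62 of the 67 members (H2bc6 has 2 start sites), and 9 of them (14.3%) had CAGGTG on either strand, against 20.2% of all 32851 windows. The looser CANNTG, which includes CAGGTG, was in 41 member windows (65.1%) and in 72.3% of all. Of the 9 windows with CAGGTG, 4 belonged to genes with a Slug peak (H3c14, H3c15, H4c17 and H4c18). The other 5 belonged to H1f6, H1f7, H1f8, H2ac1 and H2bc1, which encode histones of testis or oocyte and had no Slug peak. The windows are not independent. The match of H2ac1 and that of H2bc1 are the same bases between their starts. The windows of H4c17 and H4c18, and of H3c14 and H3c15, are close copies of each other. In the H2ac1 window CAGGTG began at -61, counting the start base as 0, right after a CCAAT on the same strand, and in the H3c15 window it began at -8. Over the printed windows of H4c11, H4c2, H2bc15, H2bc9 and H3c6 there was no match to CAGGTG.

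Letters known from histone promoters were frequent in the same windows. CCAAT, the core of the element bound by NF-Y, was in 52 of 63 (82.5%) against 37.4% of all windows. It was in all 17 H2A, 15 H2B and 10 H3 windows and in 3 of 11 H4 windows. TATAAA, the TATA box, was in 34 (54.0%) against 13.6%. The octamer ATTTGCAT, which Oct1 binds in H2B promoters, was in 7 of 15 H2B and 6 of 17 H2A windows against 1.74% of all, and in no H1, H3 or H4 window. Windows of back-to-back genes overlap, so a match between their starts is counted for both genes. The octamers of H2ac12 and H2bc12, of H2ac8 and H2bc8, and of H2ac1 and H2bc1 are the same bases. CCAAT was counted in the same way. A match is a description of the letters alone.

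The core histone classes differed in where the Slug peak stood. Most H2B genes had its midpoint inside the gene. At 200 bp inside the start site, 11 of 13 H2B genes with 1 annotated start lay in a Slug peak, and at 100 bp before it 1 did. H4 genes were alike, with 8 of 11 genes in a Slug peak at 200 bp inside and 0 at 100 bp before the start. The start base itself lay in a Slug peak at 7 of the 11 H4 genes and 6 of the 13 H2B genes, so many of these peaks span the start. Slug peak midpoints nearest the start site had a median of 175 bp inside it for H2B and 170.5 bp for H4. H2A genes were in a Slug peak at 7 of 17 starts at 200 bp inside. The position most often covered for this class was 291 to 480 bp before the start, where 64.7% of genes lay in a peak. In the back-to-back pairs described below the start sites are 163 to 280 bp apart. For those H2A genes this position thus lies inside the H2B partner, and a Slug peak there is the peak on that gene. In some pairs that peak also reaches into the shared stretch between the starts. It covered 51.5% of this stretch at H2ac23-H2bc23 and 50.8% at H2ac12-H2bc12, and none of it at H2ac15-H2bc15. Of 10 H3 genes 1 was in a Slug peak at 200 bp inside.

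Snail peaks covered the core classes alike at these positions. At 200 bp inside the start site all 17 H2A, 13 H2B, 10 H3 and 11 H4 genes lay in a Snail peak. At 100 bp before it 16 H2A, 12 H2B, 10 H3 and 11 H4 genes did. Farther out, at 500 bp before the start, the shares were 82.4% for H2A, 100% for H2B, 90% for H3 and 45.5% for H4. Snail peaks are wide beside genes this short, so cover close to the start hardly tells the classes apart. Snail peaks at histone genes had a median width of 2291 bp (381 to 4705 bp), against 722 bp for the list and 1003 bp for Snail peaks within 1 kb of any protein-coding gene. Slug peaks there had a median width of 308 bp (158 to 549 bp), against 206 bp for the list. A Snail peak was the window peak of up to 3 members and a Slug peak of up to 2.

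**Figure D2:**
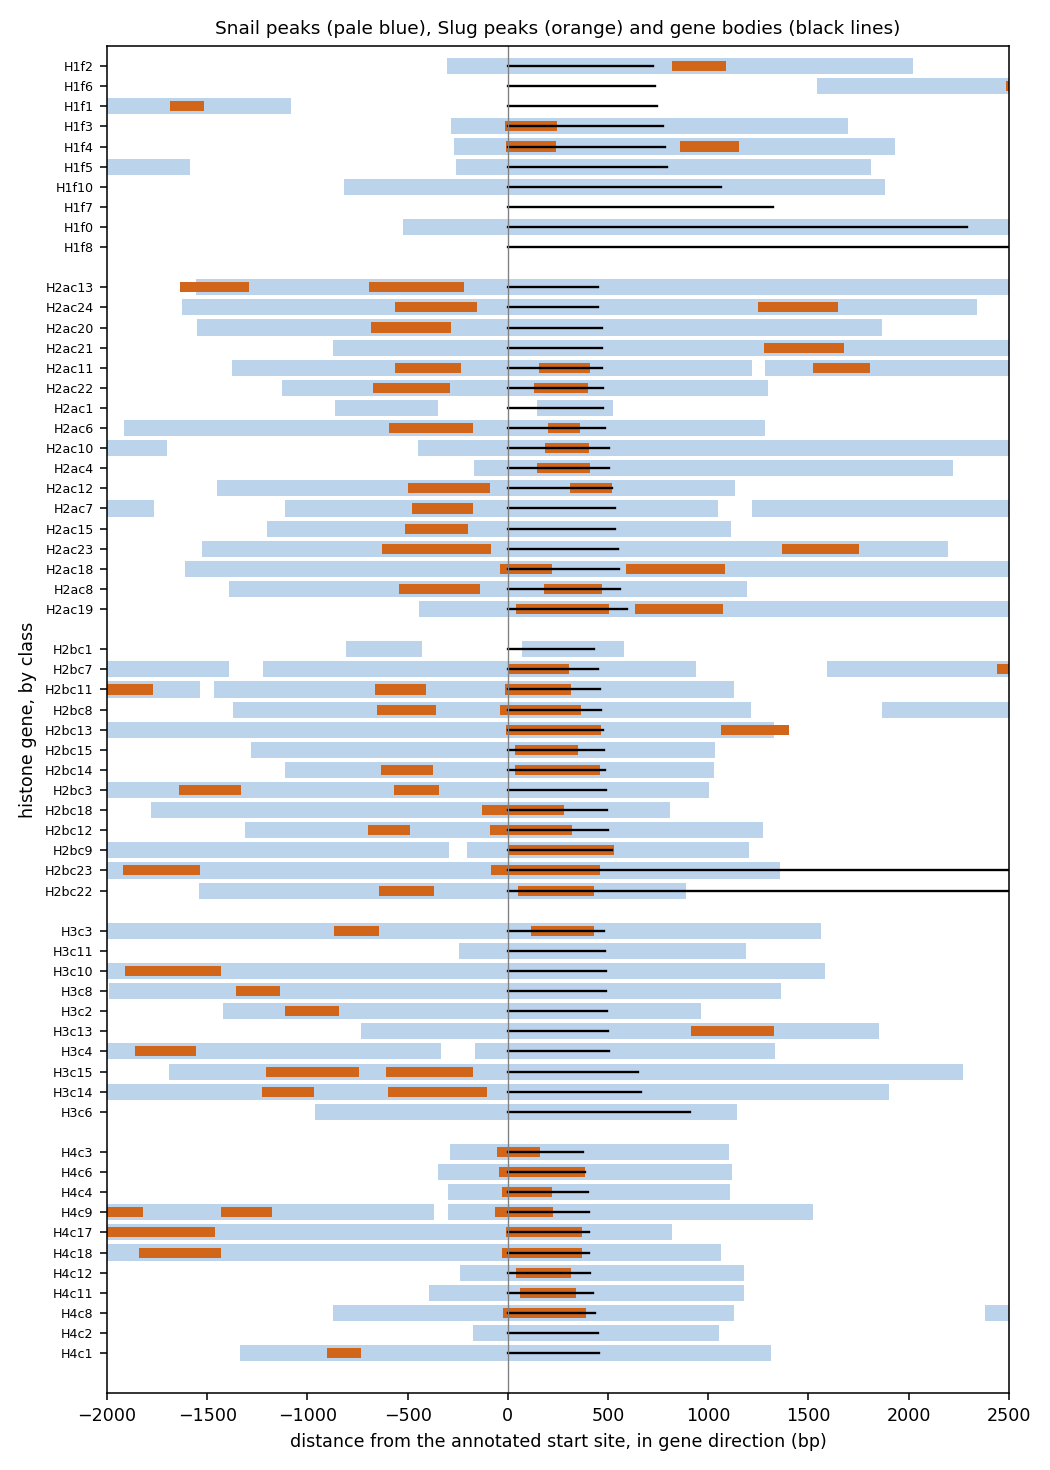
Slug peaks (orange), Snail peaks (pale blue) and gene bodies (black lines) for the 61 histone genes with 1 annotated start site, drawn in gene direction; the horizontal axis is the distance from the start site in bp and each row on the vertical axis is a gene, ordered by class. Orange blocks sit on the gene bodies of H2B and H4 genes and outside the bodies of most H3 genes that have one, inside wider blue blocks.

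**Figure D3:**
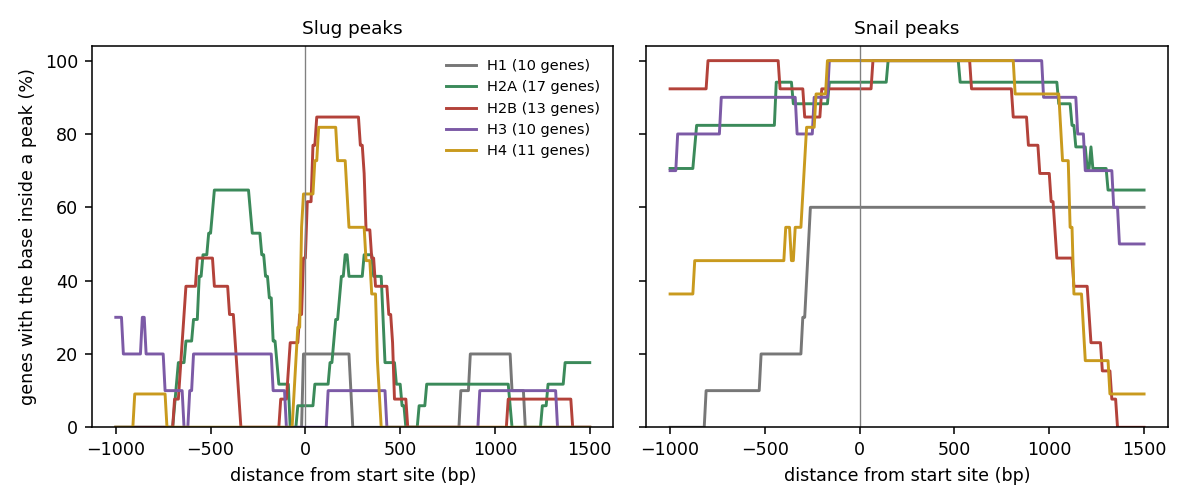
Percentage of genes of each class (vertical axis) for which a base at the given distance from the start site (horizontal axis, bp) lies in a Slug peak (left) or a Snail peak (right). The Slug curves of H2B and H4 reach 84.6% and 81.8% inside the gene, and that of H3 at most 30%. That of H2A reaches 64.7% before the start, where the H2B partner of a back-to-back pair lies. The Snail curves of the 4 core classes reach 100%.

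The back-to-back H2A-H2B pairs set both classes side by side on the same stretch of DNA. There were 9 such pairs with 1 start site for each gene, 163 to 280 bp apart. In 8 of the 9 the Slug list covered more of the first 450 bp of the H2B gene than of the H2A gene, and in the ninth, H2ac1-H2bc1, it covered neither. The H2B side was covered by a median of 70.9% (0 to 100%), the H2A side by 0% (0 to 60.7%) and the stretch between the start sites by 4.82% (0 to 51.5%). At H2ac15-H2bc15 the Slug peak at chromosome 13, 21754111 to 21754425 (score 114), began inside H2bc15 and covered 70% of its 450 bp and none of H2ac15. H2ac7-H2bc7 had the same arrangement, with 67.8% of H2bc7 and none of H2ac7. At H2ac22-H2bc22, H2ac12-H2bc12, H2ac11-H2bc11 and H2ac8-H2bc8 a separate Slug peak stood on each gene. Those on the H2A side scored 71.1, 85.9, 95.4 and 81.7, and those on the H2B side 92.5, 158, 120.05 and 165, so the H2B peak scored higher in these 4 pairs. At H2ac13-H2bc13 and H2ac23-H2bc23 the H2B side was covered in full. Snail peaks covered both sides and the stretch between in full at 8 of the 9 pairs.

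**Figure D4:**
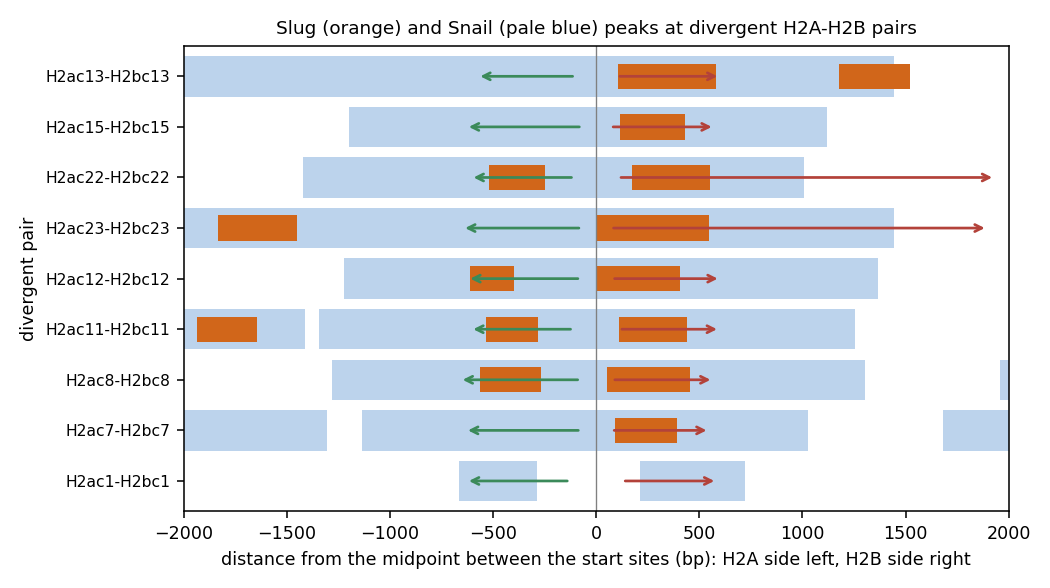
Slug (orange) and Snail (pale blue) peaks at the 9 back-to-back H2A-H2B pairs; the horizontal axis is the distance in bp from the midpoint between the start sites, with the H2A gene (green arrow) to the left and the H2B gene (red arrow) to the right, and each row is a pair; the arrows of H2bc22 and H2bc23 stop short of the ends of these longer genes. Slug blocks lie on the H2B gene in 8 pairs and on the H2A gene in 4, and H2ac1-H2bc1 has Snail peaks on the genes but none between them.

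Scores were read within each list. The score is the authors' own, given by the peak caller, and depends on the depth of the library, so Slug and Snail scores do not compare strength. The 41 Snail peaks at histone genes had a median score of 1771 (quartiles 1022 and 2567), against 151 for the whole list and 617 for the 10484 Snail peaks within 1 kb of a protein-coding gene. They included 15 of the top 100 and 19 of the 283 peaks in the top 1% of the list. Scores pile up at 3100, which 39 Snail peaks reached or passed, 7 of them at histone genes. Of these 7, the peaks at H3c15 and H4c11 held ranks 2 and 4, and the other 5 were tied at 3100. The 44 Slug peaks had a median of 101 (52.9 to 248), against 81.1 for the list and 80.2 for Slug peaks within 1 kb of a protein-coding gene. The best rank among them was 4893 of 41612, and none was in the top 1%. Histone genes thus carried some of the highest Snail scores and Slug scores of the middle range.

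**Figure D5:**
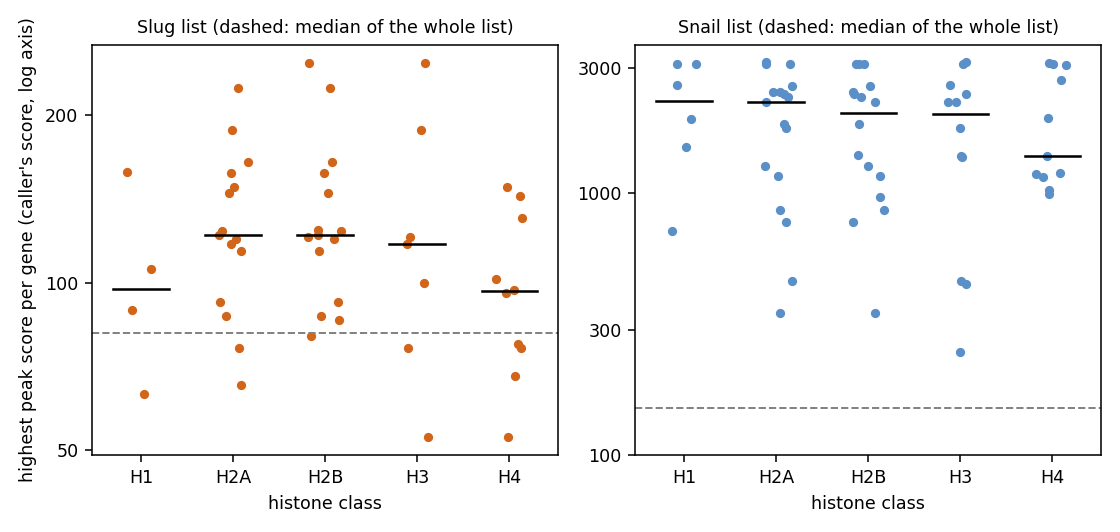
Highest peak score of each histone gene (vertical axis, the caller's score on a log axis) by histone class (horizontal axis) in the Slug list (left) and the Snail list (right); points are genes, black bars class medians and dashed lines the medians of the whole lists, 81.1 and 151. All Snail points lie above their list's median, while Slug points lie on both sides of theirs; genes that share a peak give equal points.

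All 44 Slug peaks overlapped a Snail peak by at least 1 bp. Over the whole Slug list 12.1% did, and 54.3% of the 2599 Slug peaks within 1 kb of a protein-coding gene end. In the other direction 31 of 41 Snail peaks overlapped a Slug peak, against 12.8% of Snail peaks at protein-coding gene ends. The set was selected on midpoints in both lists. Snail peaks covered 56 of the 67 members from end to end, so a Slug peak near a member could hardly miss one. The label of the antibody used for Snail also names Slug. These overlaps are thus a description, and nothing is read from the contrast with the shares over the lists. Of the 44, 43 lay wholly inside a Snail peak, and the other, at H2bc13, began before it (21714778 against 21714855). With a reciprocal overlap of 50% 0 of 44 were shared, and with midpoints within 200 bp 8 were. The widest of these Slug peaks was 549 bp, against a median of 2291 bp for the Snail peaks. Peaks so unlike in width can hardly meet the 50% rule, so that 0 does not bear on sharing.

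Among H4 genes, which encode the most conserved core histone, the Slug peak fell on the gene at H4c3, H4c4, H4c6, H4c8, H4c9, H4c11, H4c12, H4c17 and H4c18. The highest H4 Slug score was 148 at H4c18, and the H4c17 peak scored 143. H4c11 (chromosome 13, 21735034 to 21735456) lay under the Snail peak that ranked 4 in the list (21734642 to 21736215, score 3136), and its Slug peak spanned 21735097 to 21735376 (score 97.3). H4c6 had the lowest H4 Snail score, 988, and its Slug peak, with a score of 102, covered the whole gene. H4c17 had no Snail midpoint within 1 kb, the nearest being 1043.5 bp away and so just outside the limit, but the Snail peak of H2bc23 and H2ac23 (score 3100) covered it in full. H4c1 had a Slug peak near it, with a score of 52.9 on the neighbouring H3c1. H4c2 and H4c14 had a Snail peak, with scores of 1022 and 2692, and no Slug peak, the nearest Slug midpoints being 4682.5 and 6458.5 bp away.

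Slug was at 15 of 16 H2B genes, beside 15 of 17 H2A genes, an order that turned with a window of 2 kb or any base of the peak, where H2A had 16 of 17. The Slug peak on H2bc9 (chromosome 13, 23542923 to 23543444) spanned 23542913 to 23543437, 98.7% of the gene, with the highest Slug score of the set, 248. Its Snail peak scored 967. The other H2B genes with both factors were H2bc3, H2bc4, H2bc6, H2bc7, H2bc8, H2bc11, H2bc12, H2bc13, H2bc14, H2bc15, H2bc18, H2bc21, H2bc22 and H2bc23. The highest Snail score of the class, 3100, was given to peaks at H2bc6, H2bc18 and H2bc23, and the lowest, 347, to the peak shared by H2bc7 and H2ac7. H2bc3 had a Slug peak upstream, with a score of 85.6, and none on the gene. H2bc6 is annotated with 2 start sites, and its second start, at 23585970, lay inside the 37455 bp span of the gene and outside the window of either end. A Slug peak at 23585634 to 23585964 (score 141) and a Snail peak at 23584783 to 23586217 (score 1518) stood there too.

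H2A genes with both factors numbered 15 of 17, and a Slug peak touched 9. They were H2ac4, H2ac6, H2ac7, H2ac8, H2ac10, H2ac11, H2ac12, H2ac13, H2ac15, H2ac18, H2ac19, H2ac20, H2ac22, H2ac23 and H2ac24. The highest Slug score, 224, belonged to a peak at 23684133 to 23684553 that H2ac6 shares with H2bc4 and that did not touch H2ac6. A second Slug peak, with a score of 56.4, stood on H2ac6 itself. H2ac10 and H2ac4, which have no H2B partner at their start, had a Slug peak on the gene with scores of 65.5 and 76.4, and the Snail score of H2ac10 was 460.3. H2ac1 and H2bc1, which encode histones of the male germ line, had Snail peaks of 777 (on H2bc1) and 86.4 (on H2ac1), and the nearest Slug midpoint was 18370.5 bp from H2ac1.

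H3 genes all had a Snail peak, and a Slug peak touched H3c1 and H3c3, with scores of 52.9 and 99.96. The other H3 genes with both factors were H3c2, H3c7, H3c13, H3c14 and H3c15, where the Slug peak lay outside the gene. For H3c7 it was the peak on H2bc9, for H3c13 that on H2bc18 and for H3c2 that on H2ac4, whose midpoint at 978.5 bp made H3c2 the member just inside the limit of 1 kb. H3c10, H3c11, H3c8, H3c6 and H3c4 had a Snail peak alone. H3c4 had the lowest Snail score of all members, 247, and H3c6 one of 2587. Just outside the limit for Slug was H2ac21, at 1008.5 bp, and the farthest Snail midpoint inside it was that of H2ac19, at 942 bp.

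Linker histone genes had Slug at 4 of 10 and Snail at 6 of 10, beside 12.1% and 48.7% of all protein-coding genes. The Wilson intervals were 16.8 to 68.7% for Slug and 31.3 to 83.2% for Snail. These counts too rest on the midpoints that chose the set, so they are a description and nothing is read from them. Without the 4 genes outside the clusters Slug was at 3 of 6. With a window of 500 bp H1 and H3 had Slug at 4 of 10 and 4 of 12 genes, so their order for Slug depends on the window. H1f2 and H1f4 had Snail scores of 3100 and H1f3 one of 2567. Slug peaks covered the start of H1f3 (score 158) and of H1f4 (score 89.5), and lay beyond the end of H1f2 (score 106). H1f5 had a Snail peak of 1904 and no Slug peak. H1f1, and H1f6, which encodes the testis linker histone H1t, had neither within 1 kb, with the nearest Snail midpoints at 2409 and 1504 bp. Of the 4 genes outside the clusters, whose expression is not tied to S phase, H1f0 had scores of 1493 (Snail) and 63.2 (Slug), and H1f10 had 717 for Snail. H1f7 (spermatids) and H1f8 (oocytes) had no peak, and the nearest Snail midpoints were 74581 and 43712 bp away.

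The run on chromosome 3 spans 96219885 to 96270192 and held 6 Slug peaks, all at members. Its 10 genes all had a Snail peak, through 5 distinct peaks with scores from 2229 to 3157, and 8 had a Slug peak. H2ac21, H2ac20 and H2bc21 shared a Snail peak of 3419 bp with a score of 2428, and H2ac20 and H2bc21 a Slug peak with a score of 122. The Snail peak over H3c15 and H2ac19, at 96236856 to 96240818, ranked second in the list with a score of 3157, and the genes had Slug peaks with scores of 113 and 118. H2ac18 and H3c14 scored 2229 for Snail and at most 188 for Slug. H3c13 and H2bc18 scored 3100 for Snail and 121 for Slug, and H4c14 a Snail peak at 96261865 to 96264155.

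The runs on chromosome 13 gave a like picture. The first (21715711 to 22043658) had Slug peaks at 19 of 22 members and Snail peaks at 21. The second (23531044 to 23934913) had them at 23 and 29 of 31. Of the 22 Slug and 24 Snail peaks within the first span, 17 and 13 were at members, and of 25 and 25 within the second 19 and 21 were. In the first span the highest scores away from members were 133 for Slug and 642 for Snail. In the second they were 358 for Slug and 1518 for Snail, the latter at the second start of H2bc6.

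Peaks were also counted at the other genes between the histone genes. Of 10 protein-coding genes there that are no members, 2 had a Slug and 3 a Snail peak, beside 12.1% and 48.7% of all protein-coding genes; so few genes do not tell them from those shares. These were H4bc24, formerly Hist1h2br, which shares the peaks of H2ac24 (Snail 3100, Slug 100.2), Zfp184, a zinc finger gene with scores of 642 for Snail and 62.3 for Slug, and Hfe, a regulator of iron uptake with a Snail score of 194. Pom121l2, Prss16, Trim38, Slc17a1, Slc17a2, Slc17a3 and Slc17a4 had none. Of 31 tRNA genes in the first span 8 had a Snail peak, with scores up to 227, and 2 a Slug peak, against 44.1% and 8.33% of the 408 tRNA genes of the genome.

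Genes that act with the histone genes were read against the shares over all protein-coding genes, 12.1% for Slug and 48.7% for Snail. Of 14 genes for histone transcription and mRNA processing all had a Snail peak and 0 a Slug peak within 1 kb, which allows a Slug share of up to 21.4% and so does not set the list apart for Slug. The highest Snail score was 1930 at Slbp, which encodes the stem-loop binding protein, and Npat, the coactivator of histone transcription, had 1376. Casp8ap2 (FLASH) had a Snail score of 947, Cpsf3, the nuclease that cuts the transcript, 785, and Lsm10 and Lsm11, of the U7 particle, 741 and 350.04.

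Of 13 histone chaperone genes 12 had a Snail peak (92.3%, against 48.7% of all protein-coding genes). Slug was at 2 of them (15.4%, near the 12.1% of all), Asf1b at 55.3 and Daxx at 57.6. Their highest Snail score was 2011 at Npm1, and Nasp, a chaperone of H3 and H4, was the gene without one, with the nearest Snail midpoint at 1152 bp. Of 9 replacement histone genes, whose products are also made outside S phase, 8 had a Snail peak (88.9%), highest at H3f3a with 1779.7. Slug was at 1 of 9 (11.1%), H2ax with a score of 56.3, and H2aj had neither.

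Near-identical copies limit what can be said of any 1 histone gene. Coding parts of histone genes of a class are closely alike, and how reads that match several copies were treated is not given in the sources used here. Among the 62 promoter windows compared in 1891 pairs, H4c17 and H4c18 had 298 identical bases over an alignment of 301, and H3c14 and H3c15 were 90.2% identical. The median over all pairs was 46.2%, and it was 48.9% within H2B and 47.1% within H4, so most promoters differed widely in sequence. Coding sequences were not compared here, and whether a peak belongs to a gene or to a copy of it was not tested for any member.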

How the data were processed

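The members, the lists and the window were chosen with earlier results of these data known. Of 4 samples, the 2 ChIP libraries had a peak list each; the 2 input libraries were not used here. Per the submitters' processing notes, Bowtie, MACS 1.4.2 and build mm10 were used. Not given in the sources used here are the version of Bowtie, the MACS settings, the control and the handling of reads with several matches. The score in each deposited file is the authors' peak caller score, at least 50 in both lists (41612 Slug and 28375 Snail peaks), and was used within its list alone. Read depth is unknown, and no read count or signal was used here.

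Peak starts were converted to 1-based positions. Genes came from a RefSeq table of GRCm38.p6 (mm10) for chromosomes 1 to 19, X and Y, and start sites from the RefSeq promoter table, which holds 62 members. Peaks were assigned to a gene by midpoint, at most 1 kb from its start or its end. A run is a set of members with gaps of at most 500 kb. Intervals are 95% Wilson intervals and cover counting error alone; the limit of a count of 0 is 3 counts. Promoters were aligned globally in pairs (match 1, mismatch -1, gap -3 and -1). Calculations used Python 3.11.15, numpy 2.4.6, pandas 2.3.3, scipy 1.17.1 and biopython 1.88, plots matplotlib 3.10.9, and the counting was tested on simulated peaks.

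Named genes are, in each class, those with the highest and lowest Snail score and the highest Slug score, every member with no Snail peak, with both factors or off chromosome 13, and in each other list the genes without a Snail peak, with a Slug peak or with the highest Snail score; others are named as examples, chosen after their values were seen. Alternatives changed the window, the midpoint rule, the lowest score, the start site, the members, the number of Slug peaks and the overlap.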

Additional observations from a re-analysis of the deposited data

How the results depend on the processing

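Of 51 recomputed counts 45 stayed within 1.5 times the value reported. The numbers of genes with Slug, Snail or both are already 51, 62 and 50 of 67, so these could leave that limit only by falling. Windows of 500 bp, 2 kb and 10 kb, any base of a peak in place of its midpoint, start sites alone, leaving out H1f0, H1f7, H1f8 and H1f10, equal numbers of peaks, and, added after seeing the data, peaks on the gene itself gave 36 to 63 genes with a Slug peak and 50 to 65 with a Snail peak. Requiring a score of at least 100 left 32 genes with a Slug peak, 31 with both factors and 23 distinct Slug peaks, all 23 of which overlapped a Snail peak. Of the 44 Slug peaks, 8 were shared by midpoints within 200 bp and 0 by reciprocal overlap of 50%; the Snail peaks are the wider ones. Counts by class moved by more than 1.5 times in 10 of 90 cases, 8 of them lower, all for Slug; the H3 count ran from 2 with peaks on the gene to 12 with 10 kb.

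No paired analysis was possible because each factor has 1 library. No depth is known, so a gene without a peak was not shown to lack binding.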

Other observations

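Histone genes of chromosome 11 and chromosome 6 carry symbols that the rule does not match, and were looked at after the other values were seen. H2bu2, formerly Hist3h2ba (chromosome 11, 58948911 to 58949372), carried a Slug peak of score 194 at 58948914 to 58949278, with another of score 226 beside the gene at 58948140 to 58948424. Its Snail score was 570.1. H2aw, formerly Hist3h2a (58954685 to 58955192), had Slug scores of 441 and 74.9 within 1 kb and a Snail score of 1648. The Slug peak with 441, at 58953980 to 58954581, covered the pseudogene H2bu1-ps and ended before H2aw, and its score was above the highest of the members, 248. H3f4, on the same chromosome, had neither peak, with the nearest Snail midpoint at 1535 bp. H4f16, formerly Hist4h4 (chromosome 6, 136803993 to 136804431), scored 1837 for Snail and had nothing for Slug. In all, 3 of 5 protein-coding histone genes under other symbols, H4bc24 among them, were within 1 kb of Slug and 4 of Snail, beside 12.1% and 48.7% of all protein-coding genes.

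A pair of histone pseudogenes inside the runs on chromosome 13 also lay within 1 kb of peaks. H2ac14 had a highest Slug score of 125 and a Snail score of 1393, both shared with H2bc14. H2ac5-ps had a highest Slug score of 99.96 and a Snail score of 2213, shared with H3c3.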
